A study of Mus musculus with 2 samples.

Results

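The cells described here are Ccn5 and Fbln7 fibroblasts of the mouse knee synovium, the membrane that lines the joint. A cell was a member when it passed the quality limits (1000 UMIs or more, 500 detected genes or more and no more than 10% of UMIs from mitochondrial genes, where a UMI is 1 counted RNA molecule) and the following limits on single genes. Col1a1, Col1a2 and Col3a1 together made up at least 0.5% of its UMIs, Prg4 was under 1% of them, Ptprc, Pecam1 and Cdh5 together gave at most 1 UMI, Fbln7 gave at least 2, Ccn5 at least 5, and Spp1 fewer than 10. Of 10946 cells that passed the quality limits, 686 were members, 314 of 7075 in the control library and 372 of 3871 in the MMS library. The libraries were made by 10x Genomics 3' single-cell RNA-seq from wild type mice. Each pooled the synovium of 20 knees, either from control mice or from mice labelled MMS D14, a model whose abbreviation the labels do not spell out. With 1 library per group there was no replicate, so no test was made, and the intervals below are 95% intervals of counting error only. Differences between the libraries cannot be told apart from differences between the animals, dissections or runs behind them. Age, sex and the number of animals are not given in the labels.

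Ccn5, also called Wisp2, is a secreted matricellular protein of the CCN family that lacks the C-terminal domain of the other members and is linked to Wnt signalling in mesenchymal cells. Fbln7 is a fibulin, a secreted glycoprotein of the matrix that binds cells. Synovial fibroblasts form a lining layer that makes the lubricant proteoglycan Prg4 and a sublining layer rich in collagen, and both layers remodel matrix when a joint is injured or inflamed. Lox cross-links collagen and elastin, and Nsg1 is a protein of endosomes best known in neurons.

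In GRCm38 coordinates of the GENCODE annotation, Ccn5 lies on chromosome 2 from 163820861 to 163833146, Fbln7 on chromosome 2 from 128862981 to 128897034, Nsg1 on chromosome 5 from 38137192 to 38159907, and Mmp13 on chromosome 9 from 7272514 to 7283331. The promoters of Fbln7 and Mmp13 are printed because the first gene defines the cells and the second had the widest gap between the libraries. Both are RefSeq sequences of GRCm38.p6 on the plus strand, from 250 bases before to 50 after the start of transcription, 5' to 3', at chr2:128863682-128863981 and chr9:7272264-7272563. Capitals mark matches on either strand to any of 6 short motifs. The motif of TEAD factors was spelled GGAATG here. For TCF/LEF factors the letters searched were CTTTGA, and for SMAD factors they were CAGACA. The AP-1 motif was searched as TGANTCA with any base at N. RUNX factors were given the letters TGTGGT, and the core promoter box was searched as TATAAA.
Fbln7: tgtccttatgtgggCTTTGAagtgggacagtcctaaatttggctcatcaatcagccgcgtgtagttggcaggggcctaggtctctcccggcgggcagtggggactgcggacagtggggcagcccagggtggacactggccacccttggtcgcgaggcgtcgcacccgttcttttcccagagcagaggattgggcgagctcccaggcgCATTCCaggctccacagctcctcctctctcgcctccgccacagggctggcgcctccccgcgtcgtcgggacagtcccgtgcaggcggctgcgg
Mmp13: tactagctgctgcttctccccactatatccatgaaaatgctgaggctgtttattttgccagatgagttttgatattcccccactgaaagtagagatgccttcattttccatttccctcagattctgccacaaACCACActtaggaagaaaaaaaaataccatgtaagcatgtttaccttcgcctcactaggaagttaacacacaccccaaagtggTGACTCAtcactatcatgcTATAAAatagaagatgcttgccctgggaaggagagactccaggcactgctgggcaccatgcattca
The Fbln7 window held 1 TEAD and 1 TCF/LEF match, which 14.7% and 16.003% of all 32851 RefSeq promoters of this length also hold. The Mmp13 window held 1 AP-1, 1 RUNX and 1 core promoter box match, found in 7.81%, 16.8% and 13.6% of those promoters. No 2 of the matches overlap. These are matches of letters and no evidence of binding.

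The Ccn5 and Fbln7 fibroblasts were a larger share of the MMS library than of the control library. They made up 4.44% of the control cells that passed the quality limits (interval 3.97% to 4.94%) and 9.61% of the MMS cells (8.70% to 10.6%). Among gated fibroblasts, meaning cells that passed every limit except those on Ccn5 and Fbln7, the shares were 11.03% of 2847 control cells (9.90% to 12.2%) and 46.9% of 793 MMS cells (43.4% to 50.5%). The rule counts UMIs, and the members were deeper in MMS, with a median of 25900 UMIs against 18671.5 in control. When every cell was thinned to 5000 UMIs, the shares of gated fibroblasts were 2.70% in control and 23.6% in MMS. The MMS share was thus the higher one at equal depth too. Cells under 5000 UMIs were dropped, and the limits on single genes were applied again to the thinned counts. This gave 2741 control and 812 MMS gated cells, which were not all the same cells as before thinning. With Ccn5 and Fbln7 set as shares of UMIs, without thinning, the shares of gated fibroblasts were 6.18% and 34.7%. The Spp1 limit left out 4 further control cells and 127 further MMS cells, and the Prg4 limit left out 23 and 244. The gated fibroblasts themselves were fewer in MMS. A share of gated fibroblasts depends on the number of members and on the number of gated cells.

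**Figure D1:**
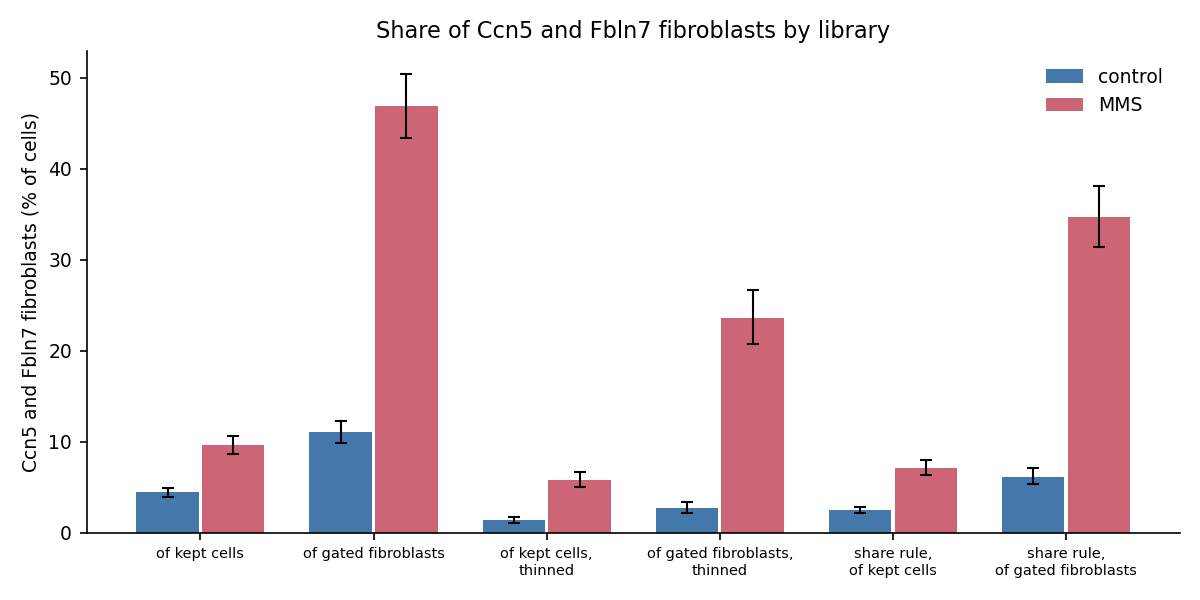
Share of Ccn5 and Fbln7 fibroblasts (%, y axis) in the control and MMS libraries over each denominator, with 95% exact binomial intervals as bars. The MMS share is above the control share in all 6 pairs, from 5.79% against 1.41% of thinned cells to 46.9% against 11.03% of gated fibroblasts.

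Cells lay close to the limits on Ccn5 and Fbln7 in both libraries. In control, 47 members had exactly 5 Ccn5 UMIs and 51 cells were left out with exactly 4, and in MMS the numbers were 20 and 21. For Fbln7, 17 control and 7 MMS members had exactly 2 UMIs, while 26 and 8 cells were left out with exactly 1. The limits thus cut through a range of counts with cells on both sides. The lowest Ccn5 count of a control member was 5 UMIs, the median 10 and the highest 106.

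Lox and Nsg1, the markers that the rule did not use, were higher in the members than in the other gated fibroblasts of each library. Levels are given as CPM, the UMIs of a gene per 1000000 UMIs summed over the cells of a set. Lox stood at 168 CPM in control members and 537 CPM in MMS members, against 45.6 and 360 CPM in the other gated fibroblasts. Nsg1 stood at 158 and 182 CPM against 60.9 and 68.3 CPM. Neither gene set the members apart from the cells with at least 1% Prg4, where Lox was at 130 and 472 CPM and Nsg1 at 147 and 142 CPM. Those cells also held Fbln7, at 1036 and 615 CPM against 860 and 885 CPM in control and MMS members. Their Ccn5 was at 341 and 717 CPM against 805 and 1128 CPM. Lox had a UMI in 73.9% of control and 96.2% of MMS members. In endothelial cells, which should lack it, the shares were 1.66% and 7.90% at lower median depths of 3812 and 8165 UMIs. The GEO labels give the cell type as goblet cells, but 9 of 10 goblet and epithelial genes checked, Epcam and Krt8 among them, had 0 UMIs in the members of both libraries.

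**Figure D2:**
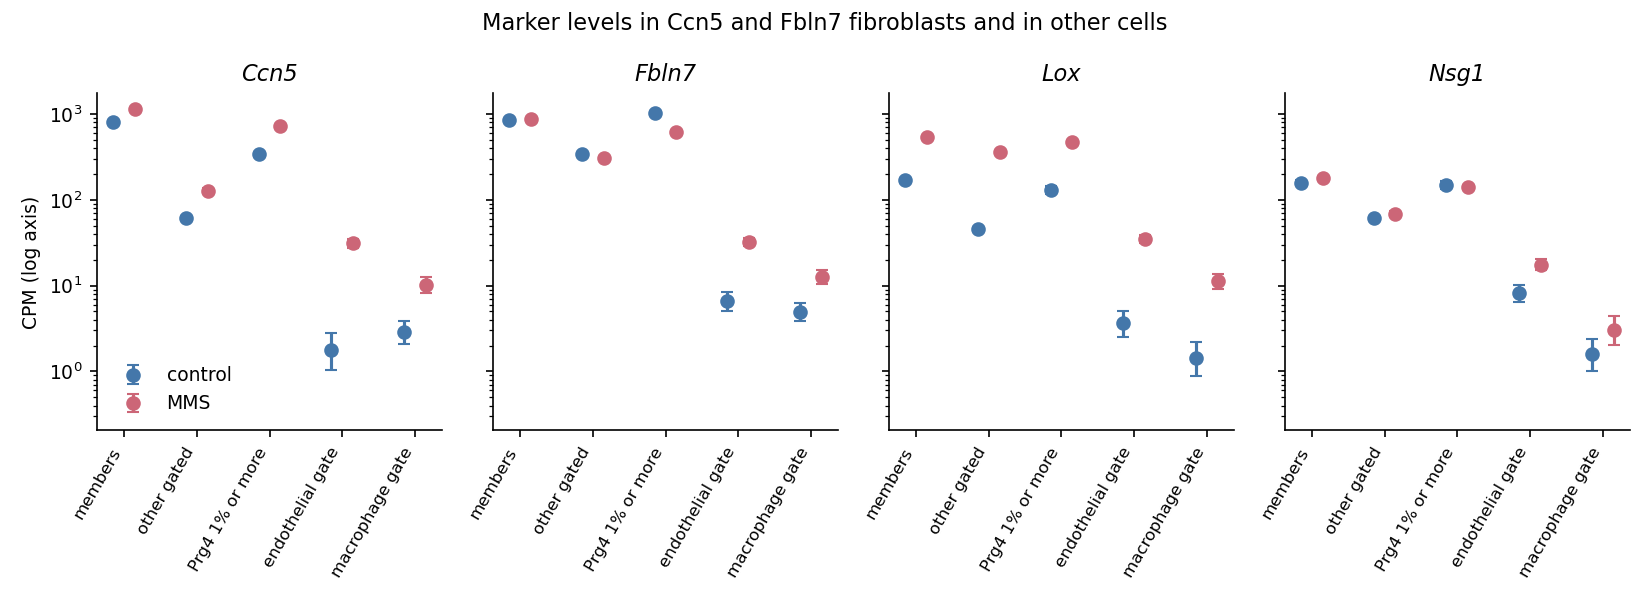
Level of Ccn5, Fbln7, Lox and Nsg1 (CPM, log axis) in the Ccn5 and Fbln7 fibroblasts (members) and in 4 other sets of cells of each library, with 95% counting intervals. Lox and Nsg1 are higher in members than in other gated fibroblasts, and near the level of the cells with at least 1% Prg4.

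The members of the 2 libraries fell into different clusters. When all gated fibroblasts were clustered together, 52.9% of the control members were in cluster 5, which was led by Hp, Serpina3m, Clu, Vtn, Cx3cl1, Chl1 and Ccl19. A further 48 were in cluster 3, 32 in cluster 1 and 25 in cluster 4. Of the MMS members, 44.9% were in cluster 16, led by Tnn, C1qtnf3, Acan, Thbs1, Fmod and Col12a1. Another 105 were in cluster 7, led by Col6a5, Igf2, Mfap4 and Megf6, and 79 in cluster 10, led by Mmp13, Mmp11, Chchd10 and Htra4. Clusters 10 and 16 together held only 24 control members. Every comparison of MMS with control members below is therefore also one between different clusters, and the 2 cannot be told apart. Values for the 24 control and 246 MMS members of clusters 10 and 16 are also given below. They do not separate the 2 either, because the clusters were made from expression in both libraries together. Control cells in those clusters were grouped by likeness to the MMS cells there, so smaller ratios within them may follow from the clustering.

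**Figure D3:**
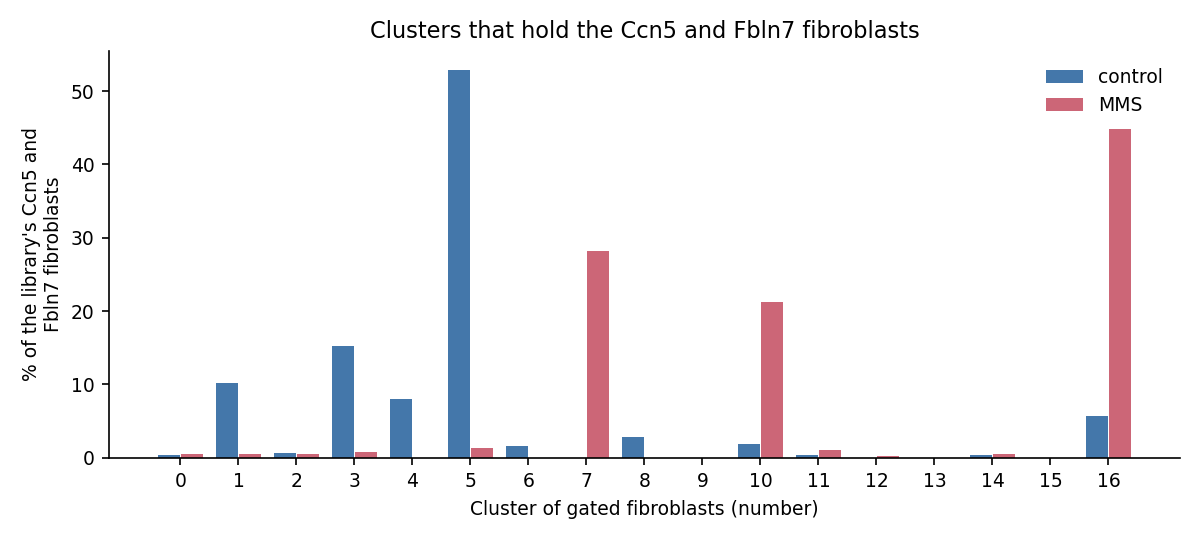
Percent of each library's Ccn5 and Fbln7 fibroblasts (y axis) in each cluster of gated fibroblasts (x axis, cluster number). Control members are mostly in cluster 5 (52.9%), MMS members mostly in clusters 16 (44.9%), 7 and 10.

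Levels within the members differed between clusters. Nsg1 was at 158 CPM in control cluster 5 and at 31.8, 23.7 and 30.04 CPM in control clusters 1, 3 and 4. In MMS it was at 110 CPM in cluster 7, 197 CPM in cluster 10 and 207 CPM in cluster 16, so the low levels were those of 3 control clusters. Fmod, a collagen-binding proteoglycan of tendon, was at 400 CPM in control cluster 1 and 267 CPM in MMS cluster 16, and at 0 in control clusters 3, 4 and 5. Thbs4, a tendon thrombospondin, was likewise highest there among the clusters named above, at 1289.9 and 814 CPM. The chemokine Cxcl12 went the other way, with 680 CPM in MMS cluster 16 and 3922 CPM in cluster 7.

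Against the other gated fibroblasts, few genes set the members apart in both libraries. Of 11043 genes with at least 50 UMIs over members and others in each library, 39 (0.353%) were at least 2-fold higher in the members of both libraries and 173 (1.57%) at least 2-fold lower. In control alone the shares were 1.39% higher and 2.67% lower, and in MMS alone 0.915% and 3.90%. Since the members were picked by expression, this is a description and no test. Crocc2, a rootletin-like gene, was at 17.3 CPM in control members against 4.40 CPM in the others, and at 23.2 against 3.97 CPM in MMS. Tnfsf11, the osteoclast factor RANKL, was at 11.4 against 1.20 CPM in control and 20.1 against 6.48 CPM in MMS. Endothelial and macrophage cells held at most 0.11 CPM of Tnfsf11. Sfrp4, a secreted Wnt inhibitor, was the most abundant of the 15 genes with the highest ratios, at 908 against 388 CPM in control and 1026 against 297 CPM in MMS.

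The transcription factor Hand2 was at 12.1 against 3.53 CPM in control and 5.88 against 1.62 CPM in MMS. Ccbe1, a secreted factor for lymphatic growth, was at 33.1 against 10.3 CPM and at 61.8 against 27.8 CPM. Both genes were higher in the members whichever library was read. Chl1, an adhesion protein of nerves, had a wide gap in control (173 against 29.7 CPM) and a narrower one in MMS (190 against 87.6 CPM). Pde5a and Gadd45a were also among the 15 genes, as was Hoxa11os, which overlaps Hoxa genes on the other strand and whose counts are therefore uncertain.

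Some of the 15 genes were as high or higher in other cell types, so their level in the members may include free RNA, which was not tested. Srgn, the granule proteoglycan serglycin, was at 313 and 456 CPM in control and MMS members, and at 1121 and 1064 CPM in macrophages. Clu was at 144 and 63.2 CPM in members and at 82.3 and 178 CPM in endothelial cells. Htra4, a secreted protease, was at 36.8 and 107 CPM in members and at 26.3 and 239.9 CPM in endothelial cells. In MMS it was seen in 7.64% of the endothelial cells and in 46.2% of the members, so its endothelial UMIs were in few cells. Ampd3 was at 29.5 and 58.1 CPM in members and 36.8 and 25.6 CPM in endothelial cells.

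The genes that were lower in the members of both libraries included Procr, the protein C receptor, at 87.5 against 312 CPM in control and 33.0 against 109 CPM in MMS. Lgi2 was at 24.0 against 98.5 CPM in control and 7.45 against 27.1 CPM in MMS. Cpz, a carboxypeptidase that binds Wnt proteins, was at 3.40 against 21.7 CPM and at 7.85 against 23.8 CPM. Rorb, Olfml2a, Qpct, Efhd1 and Mgll were lower in the same way, with log2 ratios from -3.66 (Rorb in control) to -1.61 (Mgll in control). Mgll was at 1844 and 859 CPM in control and MMS endothelial cells, against 65.7 and 55.9 CPM in the others. Qpct was at 56.2 and 37.6 CPM in macrophages, against 36.9 and 10.3 CPM. Olfml2a and Efhd1 were higher in endothelial cells than in the others in MMS only. Procr, Lgi2, Cpz and Rorb were lower there in both libraries. The part of free RNA in the others was not tested.

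**Figure D4:**
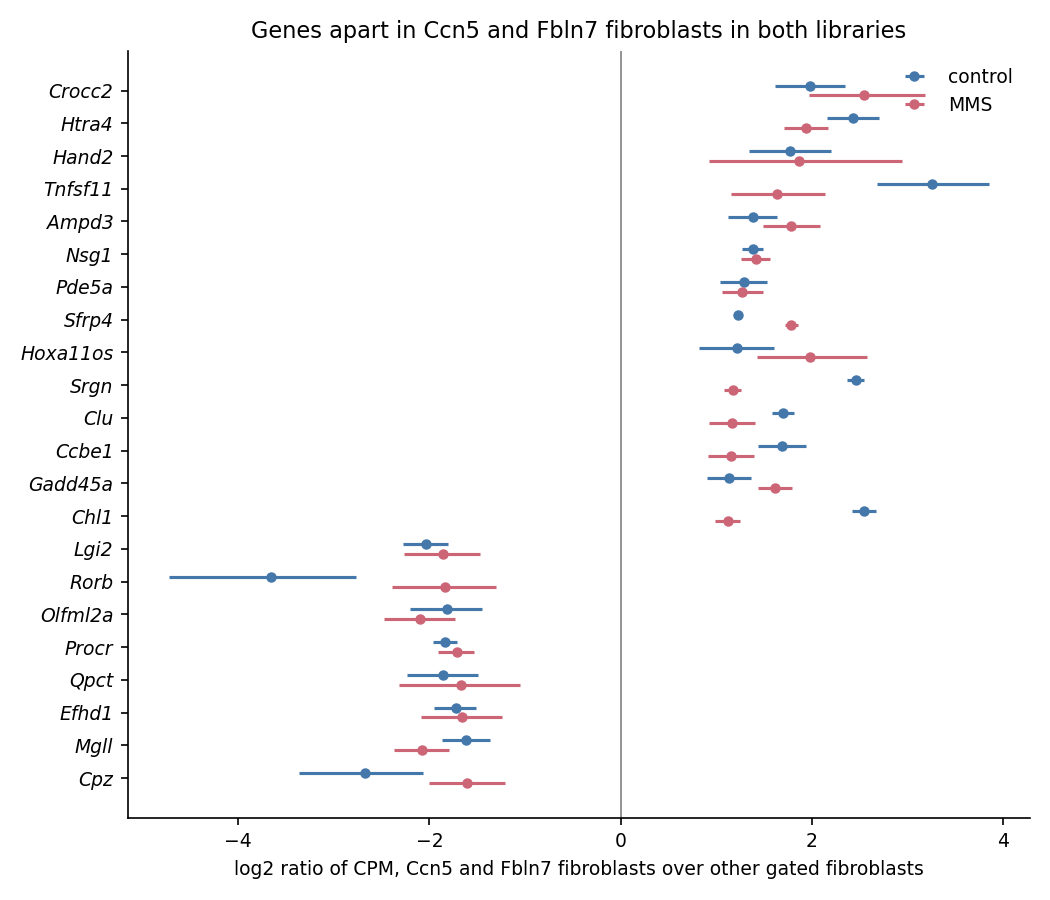
Log2 ratio of CPM in Ccn5 and Fbln7 fibroblasts over other gated fibroblasts (x axis) for the genes shown, in control and MMS, with 95% counting intervals as bars. Crocc2 to Chl1 are right of 0 and the 8 genes from Lgi2 to Cpz left of 0 in both libraries.

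Between the libraries, MMS members had higher levels of matrix protease, collagen and activated fibroblast genes, and lower levels of interferon and chemokine genes, than control members. Of 10915 genes with at least 50 UMIs, 690 (6.32%) were at least 2-fold higher and 341 (3.12%) at least 2-fold lower in MMS members. TMM scaling gave 513 and 446 and median of ratios scaling 507 and 452, because they moved every log2 ratio by -0.16 and -0.17. In the other gated fibroblasts 8.69% of 12375 genes were higher and 4.90% lower. Of 10874 genes counted in both, 412 were at least 2-fold higher in members and others alike. A further 248 passed 2-fold in members only and 335 in others only. At least 2-fold lower were 209 genes in both, 130 in members only and 121 in others only. Genes past 2-fold in members only may have differed the same way in the others by less than 2-fold, and the reverse.

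Mmp13, a collagenase of cartilage breakdown, had 0 UMIs in 314 control members and 5300 UMIs (520 CPM) in MMS members. The log2 ratio was 10.13 with 0 read as 3 counts, and its interval had a lower limit of 9.83 and no upper limit. A single cell held 18.2% of those UMIs. It was at 2219 CPM in cluster 10, 218 CPM in cluster 7 and 103 CPM in cluster 16, and at 0 in all control members, so the gene was in each main MMS cluster but mostly in one. The other gated fibroblasts also had 0 UMIs in control and 95.4 CPM in MMS. Endothelial and macrophage cells of the MMS library held 1.502 and 2.08 CPM.

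Among the 12 genes with the highest ratios, Megf6 went from 0.62 to 52.1 CPM (log2 ratio 6.40, interval 5.03 to 8.28). Fbn2, a fibrillin of developing elastic fibres, went from 0.77 to 45.7 CPM (5.88, 4.65 to 7.51), and C1qtnf3, a secreted C1q-like protein, from 6.34 to 182 CPM (4.84, 4.39 to 5.32). Mmp11, the protease stromelysin-3, went from 7.58 to 160 CPM (4.40, 3.99 to 4.84). The others were Adamts16, Chchd10, Rgs4, Myo16, Col24a1, Podnl1 and Gpr176. Chchd10 and Rgs4 were also present in endothelial cells, at 35.6 and 40.1 CPM in MMS against 61.1 and 18.1 CPM in the members. Chchd10 and Mmp11 overlap on opposite strands of chromosome 10 (75933130 to 75937747 and 75923222 to 75936496). Their 3' ends, at 75937747 and 75923222, lie outside the overlap. Whether the overlap affects their counts was not tested. Within clusters 10 and 16 Mmp11 was at 9.57 CPM in 24 control and 200.1 CPM in 246 MMS cells, and C1qtnf3 at 31.5 and 223 CPM.

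The genes lowest in MMS members were Inmt, a methyltransferase, at 81.7 CPM in control and 4.22 CPM in MMS (log2 ratio -4.28, interval -4.76 to -3.83), and the complement component C7 at 46.6 and 2.65 CPM (-4.14, -4.76 to -3.57). Myoc, myocilin, was at 757 and 73.1 CPM. Lepr, the leptin receptor, was at 34.2 and 5.20 CPM. Has1, a hyaluronan synthase, was at 308 and 52.2 CPM, Ptgs2 (cyclooxygenase 2) at 42.2 and 7.45 CPM, and Il6 at 43.5 and 7.84 CPM. MMS endothelial cells held more Has1 and Il6 than the MMS members, 76.1 and 38.1 CPM. Has1 was seen in 5.61% of those endothelial cells against 46.0% of the MMS members, and Il6 in 10.3% against 6.72%. The endothelial Has1 UMIs were thus in few cells. Stk32a, Usp18, Cdh4, Aldh3a1 and Cfd completed the 12. Cfd rests on 1 cell per library, which held 94.0% of the control and 87.6% of the MMS UMIs.

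The gene lists are described by their counts and medians. Over all 13376 genes with at least 10 UMIs the median log2 ratio of MMS over control members was 0.19, with 10.5% at least 2-fold higher and 4.58% at least 2-fold lower. For the activated fibroblast list, of contractile and wound matrix genes, 17 of 18 genes were higher and 13 at least 2-fold, with a median of 1.73. Tnc went from 45.8 to 410 CPM, Postn from 429 to 1411 CPM and Cthrc1 from 167 to 750.5 CPM. Acta2, the smooth muscle actin of myofibroblasts, was low in both, at 10.7 and 54.1 CPM. Only Tgfbi was lower, at 568 and 539 CPM. The median was 2.64 in the other gated fibroblasts, whose MMS cells also held more mural markers (Rgs5 at 574 CPM). In the 24 control and 246 MMS members of clusters 10 and 16 it was 0.55. The lining fibroblast list without Prg4 had 7 of 8 genes higher and 5 at least 2-fold, with a median of 1.74. That median was 0.91 in the other gated fibroblasts and 0.67 within clusters 10 and 16. The summed level of the list was lower in MMS members, at 592 CPM in control and 501 CPM in MMS. Its relation to the Prg4 limit was not tested.

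All 14 measured collagen chains that the rule did not use were higher in MMS members, with a median of 0.90. Col12a1, a fibril-associated chain, went from 38.2 to 349 CPM, while Col14a1 went from 1107 to 1259.8 CPM. Within clusters 10 and 16, 13 of the 14 chains were higher and the median was 0.58. There Col14a1 was the lower one, at 1418 CPM in control and 1054 CPM in MMS (log2 ratio -0.43, interval -0.52 to -0.33). Of 19 matrix proteases 16 were higher (median 1.23), Mmp3 from 144 to 528 CPM, Mmp14 from 130 to 572 CPM and Mmp2 from 914 to 2139.7 CPM. The protease inhibitors went the other way, with 4 of 12 higher and a median of -0.71, and Timp3 at 312 and 101 CPM. Timp1 was higher in MMS, at 310 and 695 CPM. Within clusters 10 and 16 the protease median was 0.56 and the inhibitor median -0.12, and Timp3 went the opposite way, from 20.5 to 70.7 CPM (1.78, 1.05 to 2.63). In the other gated fibroblasts all 14 collagen chains were higher in MMS too, with a larger median of 1.49. There 18 of 20 proteases (median 1.21) and 5 of 12 inhibitors (median -0.28) were higher.

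Among the 17 elastic fibre genes 12 were higher, with a median of 0.48. Eln, elastin itself, went from 52.0 to 178 CPM and Mfap4 from 28.9 to 112 CPM, while Fbln1 was lower (353 and 94.0 CPM). Fbln5 was nearly level, at 95.9 and 107 CPM. The cross-linking list was close to the background of all genes (13 of 21 higher, median 0.25), although Lox went from 168 to 537 CPM and Plod2, a lysyl hydroxylase, from 128 to 309 CPM. The medians of the 2 lists were 0.32 and -0.06 within clusters 10 and 16, and Plod2 was level, at 367.9 and 367.4 CPM. In all members Pcolce2, an enhancer of procollagen processing, was lower, at 791 and 209 CPM.

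Of the small proteoglycans 5 of 12 were higher, with a median of -0.67, against 7 of 13 and 0.28 in the other gated fibroblasts. Dcn, decorin, was at 20774 and 12323 CPM and Ogn at 1134 and 430.4 CPM, whereas Lum, lumican, went from 1915.5 to 4449 CPM. Of 4 other CCN genes Ccn4 went from 6.03 to 49.0 CPM and Ccn2 from 106 to 195 CPM, while Ccn1 was lower at 667 and 479 CPM. Within clusters 10 and 16 the proteoglycan median was 0.14, Ogn was at 275 and 284 CPM, and Ccn1 was higher in MMS, at 335 and 398 CPM (log2 ratio 0.25, interval 0.06 to 0.44). The Wnt inhibitors as a list were near the median of all genes, 0.19, with 5 of 9 higher and a median of 0.18, and their members differed: Dkk3 went from 58.0 to 281 CPM and Dkk2 from 214 to 54.9 CPM. The Wnt ligands had 5 of 11 higher (median -0.10). The TGF-beta and BMP ligands and receptors were near that median too, with 12 of 20 higher and a median of 0.20. Among them Tgfb1 went from 28.1 to 58.7 CPM.

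All 16 interferon response genes were lower in MMS members, 9 of them at least 2-fold, with a median of -1.16. Ifi27l2a was at 256 and 37.2 CPM, Isg15 at 21.5 and 5.59 CPM, and Bst2 at 90.0 and 39.1 CPM. Within clusters 10 and 16 the median was 0.014 over 15 genes, of which 9 had 3 control UMIs or fewer. Bst2, with 61 control UMIs there, was lower in MMS, at 83.4 and 33.3 CPM (log2 ratio -1.33, interval -1.74 to -0.90). Ifi27l2a was at 15.04 and 19.7 CPM there. Of 21 chemokines and cytokines 15 were lower, with a median of -0.81: Ccl11 was at 69.1 and 13.3 CPM, Cxcl1 at 607 and 246 CPM and Csf1 at 298 and 102 CPM. That median was -0.65 within clusters 10 and 16. In the other gated fibroblasts 12 of 22 were higher (median 0.20), while 13 of 16 interferon genes were lower there (median -0.52). In members Ccl8 and Il11 were higher, at 24.7 and 104 CPM and at 0.77 and 17.7 CPM. Immediate early genes, which cell dissociation is known to induce, were also lower, 17 of 18 in members (median -1.04) and 18 of 18 in the others (median -1.26). Their part in the lower chemokine and Il6 levels was not tested.

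**Figure D5:**
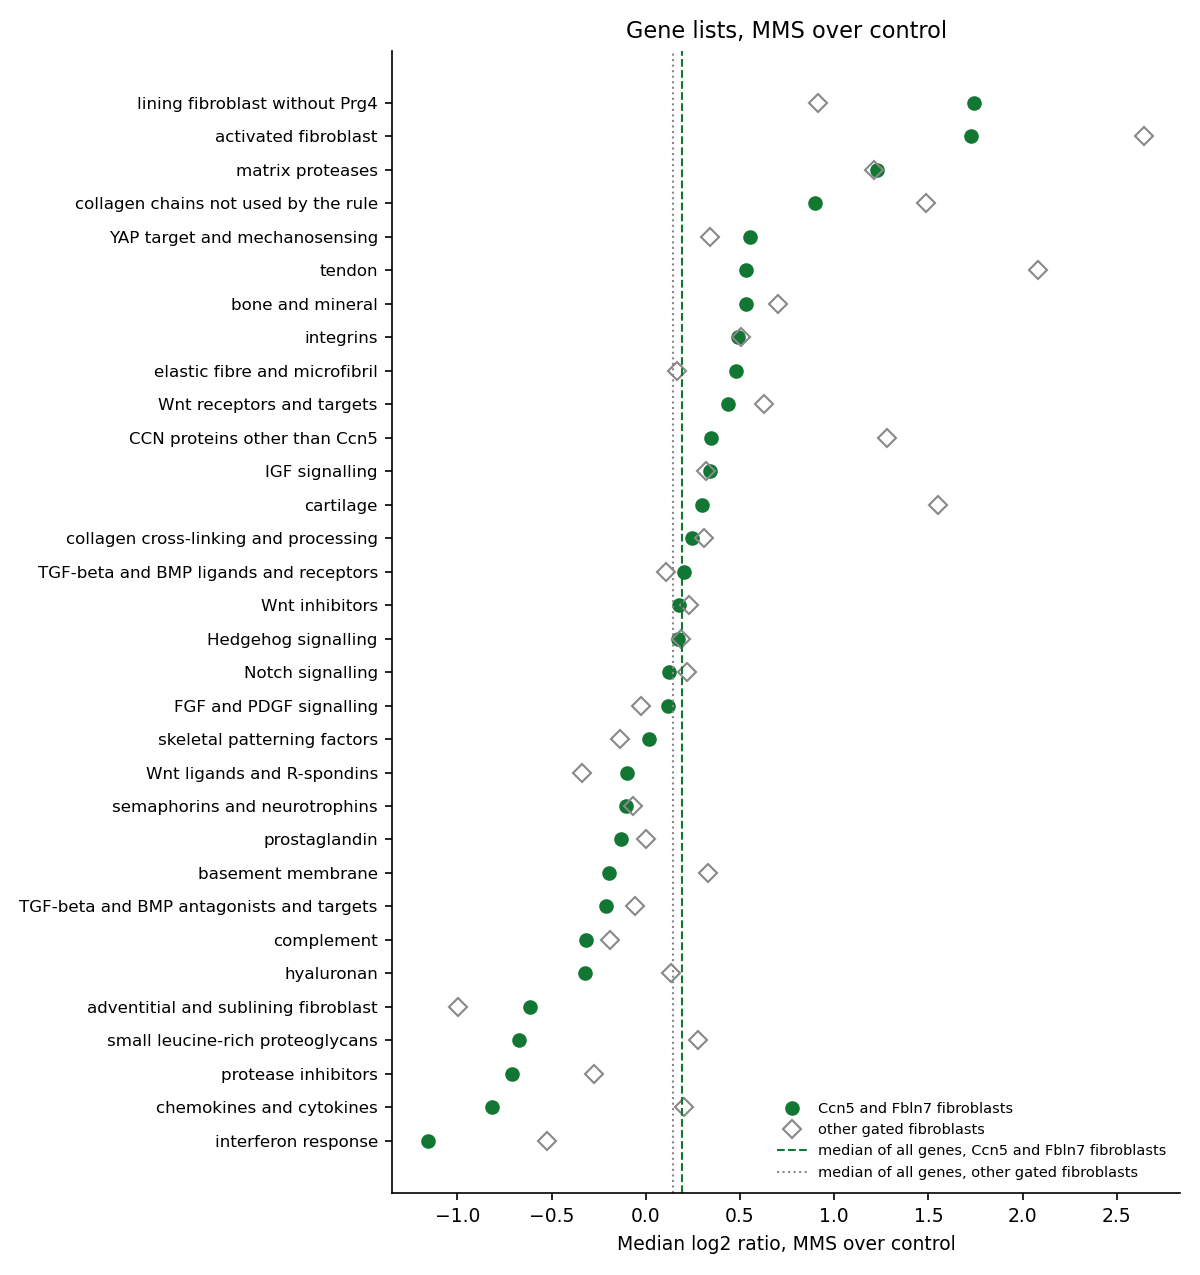
Median log2 ratio of MMS over control (x axis) for each gene list, in Ccn5 and Fbln7 fibroblasts (filled) and other gated fibroblasts (open), with the median over all genes as lines (0.19 in members). Activated fibroblast and matrix protease lists lie to the right in both, and the interferon list to the left in both.

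Markers of other cell types were low in the members but not equal between the libraries. Haemoglobin genes summed to 96.5 CPM in control and 546 CPM in MMS members, and 7 neutrophil genes to 0.77 and 41.1 CPM. The 10 macrophage genes summed to 127 and 161 CPM and the 10 endothelial genes to 46.9 and 37.9 CPM. The 7 adipocyte genes summed to 365 and 98.7 CPM, the highest of these sums in control, and 67.1% of the control Fabp4 UMIs and 85.8% of the control Adipoq UMIs were in 1 cell each. The cell cycle list had 16 of 17 genes higher (median 2.60), but at low levels, with Mki67 at 0 in control and 7.94 CPM in MMS. Their part in the other differences was not tested.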

How the data were processed

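Droplet 3' single-cell RNA-seq of synovium was read from 2 deposited matrices, 1 library per group. The values are raw UMI counts per gene and cell, deposited by the authors as whole numbers. Cell Ranger 5.0.0 wrote the matrices per the file headers. A different version, 2.0.0, stands in the submitters' processing notes, together with the build mm10. Its other options are not given in the labels. The control library held 8810 barcodes with 84900876 UMIs and the MMS library 5286 with 85597195. No barcode sequence was a member in both libraries, and 4 were among the cells that passed the limits in both.

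Counts were summed over members per library and divided by all their UMIs to give CPM (6465641 UMIs in control members, 10197603 in MMS members). Log2 ratios have exact conditional binomial intervals and shares have Clopper-Pearson intervals, both at 95%, and a count of 0 was read as 3. UMIs of 1 library are not replicates, so no p-value was made. The members and gene lists were chosen with earlier results of these data known. Named genes were the 12 highest and 12 lowest ratios of MMS over control, and the 15 highest and 8 lowest of members over others, among genes with at least 50 UMIs seen in at least 10% of cells on the higher side. Mitochondrial, ribosomal, haemoglobin, unnamed, Xist, Y-linked and rule genes were left out, 1 of the 15 is not reported here, and in the first comparison so were genes whose level in members was under 0.5 times that in all kept cells. Scrublet called 1 control and 2 MMS members as doublets, which were kept and left out as an alternative. Clusters are Leiden clusters (scanpy 1.11.5, leidenalg 0.10.2) at resolution 1.0, left unnamed. Endothelial cells had at least 3 UMIs of Pecam1 and Cdh5, and macrophages at least 5 of C1qa, C1qb and C1qc. TMM factors came from edgeR 4.0.16. Of 32285 gene identifiers, 32235 matched GENCODE M21. Ratios and intervals were tested on simulated sums drawn with counting error alone, the error the intervals assume. That test does not cover spread between cells.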

Additional observations from a re-analysis of the deposited data

Results flagged for a closer look

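For 7 genes the ratio of MMS over control went one way by at least 2-fold in the Ccn5 and Fbln7 fibroblasts and the other way in the other gated fibroblasts. The log2 ratios in members and others were -1.43 and 1.46 for Adipoq, -1.40 and 1.06 for Car3, -4.44 and 1.02 for Cidec, -2.29 and 1.38 for Fabp4, and -1.44 and 1.62 for Sncg. Cilp2, a cartilage matrix protein, had -1.73 and 1.88, and Pf4, a platelet and macrophage chemokine, had 1.66 and -2.02. The difference between the ratios was not tested, since each rests on 1 library per group. Adipoq, Car3, Cidec and Fabp4 are adipocyte genes, and a single control member held 85.8%, 66.6%, 91.3% and 67.1% of their UMIs. With at least 3 Fbln7 UMIs the adipocyte median of control members over others was -1.25 in place of 2.05, and with at least 10 Ccn5 UMIs that of MMS over control was 0.83 in place of -1.86, so these ratios rest on a few members.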

How the results depend on the processing

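Of 76 recomputed values of the shares, gene counts and cluster shares, 55 were labelled the same as the reported value and 21 moved. For gene counts the label allowed wide shifts. Of genes higher in MMS members, 507 (median of ratios scaling) and 1035 (clusters 10 and 16 alone) were both labelled the same as 690. Of genes lower, 452 (median of ratios scaling) was labelled the same as 341. The gap between the libraries, in percentage points, was 5.17 of all cells and 35.9 of gated fibroblasts. It was 8.40 of all cells with no Spp1 limit and 11.1 with no Prg4 limit. Of gated fibroblasts it was 28.5 with Ccn5 and Fbln7 as shares of UMIs, 43.5 with no Prg4 limit and 20.9 after thinning to 5000 UMIs. MMS was the higher library in each. Thinned cells gave 377 genes higher and 192 lower in MMS members, and 17 higher and 49 lower in members than others in both libraries. A minimum of 20 UMIs gave 1061 higher in MMS members, and 60 higher and 287 lower in members than others. A minimum of 200 UMIs gave 300.0 higher and 185 lower in MMS members, and 19 higher and 44 lower in members than others. Thinning and the UMI minimum also change how many genes are counted. Those numbers are not given here, so these counts cannot be read as shares of genes. The 2 settings on clusters 10 and 16 and the one on other clusters were chosen after seeing the data. With clusters 10 and 16 alone 1035 genes were higher and 105 lower in MMS members. These counts compare 24 control with 246 MMS cells, so many genes had few control UMIs. The number of genes counted at this setting is not given here. The counts therefore do not show that more genes differed within these clusters than among all members. The top cluster held 29.6% of control members at resolution 2.0, and 77.4% (resolution 0.5), 30.9% (resolution 2.0) and 55.4% (without Ccn5 and Fbln7 among the clustering genes) of MMS members.

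Of 1952 values of named genes and lists 208 moved and 11 changed sign. Cfd was at 1.30 with at least 3 Fbln7 UMIs, 1.83 with at least 10 Ccn5 UMIs and 0.12 in clusters 10 and 16. The adipocyte median of members over others in control was -1.25 and -1.94 under the first 2 of these. That of MMS over control was 0.83 with at least 10 Ccn5 UMIs and 0.41 in clusters 10 and 16, where the interferon median was 0.014. The neutrophil median was -0.81 there, but all 5 genes had 0 control UMIs read as 3, so this is a lower bound and shows no change of direction. Without 4 clusters among the others the adipocyte median in MMS was 0.79, and with no Spp1 limit the cell cycle median of members over others in control was 0.19. The cause of the other shifts was not tested. No paired analysis was possible because each group has 1 library, and for the same reason no replicate could be left out. Depth limits genes of few UMIs, and ratios for them have wide intervals.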
